A study of Mus musculus with 12 samples.

Results

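The liver array of mice given all-trans retinoic acid (ATRA) alone for 2 days was compared with the liver array of mice given vehicle, 2 of the 12 arrays of the series. Genes entered the comparison when their probe was well above background on both arrays, which held for 18276 of 34741 genes. All mice were male ICR animals, an outbred stock, wild type, 5 weeks old at purchase and adapted for 1 week. The ATRA group drank ATRA at 30 mg/L, about 150 µg per day, the ATRA+DEN group drank the same ATRA with diethylnitrosamine (DEN, a liver carcinogen) at 80 mg/L, about 400 µg per day, the DEN group drank DEN alone, and the vehicle group drank water. The ATRA had been dissolved in ethanol and dimethyl sulfoxide, and the labels do not say whether the vehicle water held these solvents. Nor is it stated whether RNA was pooled from several animals for an array. These 4 day-2 arrays lie on 1 slide, with 1 array per group, so no difference here has a replicate or a test, and a difference counts as called when it is at least 2-fold.

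ATRA is the active form of vitamin A. It binds the retinoic acid receptors, which sit on DNA with retinoid X receptors at paired hexamer sites and switch on nearby genes. Among the best known of these genes are those of its own breakdown, the CYP26 hydroxylases, and Lrat, which turns retinol into storage esters, so that the liver, the main vitamin A store, limits its own exposure. Liver tissue holds mostly hepatocytes, with sinusoidal endothelium, Kupffer cells, stellate cells, bile duct cells and blood.

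Levels are log2 of the Agilent processed intensity less the 75th percentile of the array, so 0 is that percentile. All 23 measured hepatocyte markers were above background on each of the 4 arrays, as they were on the other 8. The share of probes well above background was 47.6% in ATRA, 45.9% in vehicle, 50.7% in ATRA+DEN and 47.2% in DEN, the median intensity was 14.3 in ATRA, 12.4 in vehicle, 15.9 in ATRA+DEN and 15.2 in DEN, and no probe was saturated. Spots of 1 probe printed 5 or more times on an array had a median SD of 0.0717 in ATRA and 0.0745 in vehicle (log2). That is the error of spots within an array and not of mice. The lowest level still above background was -3.41 in ATRA and -3.51 in vehicle.

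Over all 18276 genes the median difference, ATRA minus vehicle, was -0.05, with 44% of genes above 0 and 56% below, and 84.3% lay within 0.5 of 0. At least 2-fold higher in ATRA were 285 genes (1.56%), and 280 were at least 2-fold lower (1.53%). At least 4-fold apart were 49 higher and 48 lower genes, and at least 16-fold apart were 6 and 2. The share of genes 2-fold apart either way was 3.09% over all genes, 4.78% in the third of genes with the lowest level and 1.59% in the third with the highest. With the arrays scaled on spike-in probes in place of the 75th percentile, every difference moved up by 0.37 and the counts became 859 higher and 129 lower, so 86.9% of called genes were higher, against 50.4%. All differences are therefore relative to the bulk of genes on each array.

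The other 2 arrays of the slide were used to describe which arrays lie apart from the rest. Both are of mice given DEN and each group has 1 array, so array, mouse and treatment cannot be told apart. Each called gene was placed by the largest gap, of at least 2-fold, that sets an array or pair of arrays off from the rest. ATRA and ATRA+DEN together stood off from vehicle and DEN in 49 higher genes (0.268% of all genes) and 15 lower genes (0.0821%). ATRA alone stood off in 46 higher genes (0.252%) and 27 lower genes (0.148%). Vehicle alone stood off from ATRA, ATRA+DEN and DEN in 48 higher genes (0.263%) and 92 lower genes (0.503%). The other 142 higher (0.777%) and 146 lower genes (0.799%) had no such gap. Each gene was placed only once, so a smaller gap of at least 2-fold could be present as well. In 7 of the 49 higher genes of the first kind, vehicle was also at least 2-fold below DEN, and so below each of the other 3 arrays. Among them were Cyp26a1, Cyp26b1, Raet1e, Raet1b, Cish and Socs2. Among the genes that ATRA had lower, vehicle standing alone was thus more frequent than ATRA standing alone, by 92 to 27. The split by direction depends on the scaling. With spike-in scaling the genes in which vehicle stood alone became 237 higher and 43 lower, against 48 and 92. Over the 19814 genes that 2 or more arrays of the slide had above background, called or not, vehicle was at least 2-fold from each of the other 3 arrays in 276 genes, DEN in 200, ATRA+DEN in 165 and ATRA in 162.

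**Figure D1:**
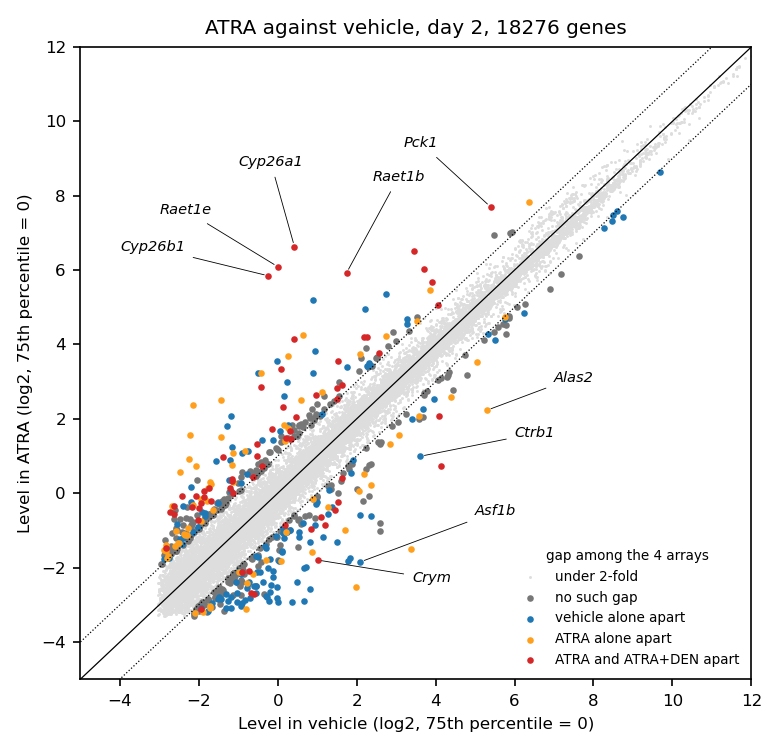
Level of each of the 18276 genes in ATRA (vertical axis, log2) against vehicle (horizontal axis, log2), both relative to the 75th percentile of the array. Dotted lines mark a 2-fold difference and colours mark which array or pair of arrays stood off on the slide. Cyp26a1, Cyp26b1, Raet1e and Raet1b lie far above the diagonal and Asf1b, Ctrb1, Alas2 and Crym far below it. Of the 280 lower genes, vehicle alone stood off in 92 and 146 had no gap.

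The pair of ATRA+DEN and DEN shares no array with the pair of ATRA and vehicle. Here and for the placing, genes had to be above background in ATRA and vehicle only. Of the 18276 genes, 17943 were above background on all 4 arrays. Of the 285 higher genes, 192 (67.4%) were also above 0 in ATRA+DEN minus DEN, where 48.7% of all genes were, and 70 (24.6%) were at least 2-fold higher there, where 2.21% of all genes were. Of the 280 lower genes, 155 (55.4%) were below 0 in that pair, where 51.3% of all genes were, and 50 (17.9%) were at least 2-fold lower there, where 1.81% were. In 46 genes both pairs were at least 2-fold apart in opposite directions. Among the 285 higher genes, 20 were at least 2-fold lower in ATRA+DEN minus DEN, where 1.81% of all genes were. Among the 280 lower genes, 26 were at least 2-fold higher there, where 2.21% of all genes were. Calls in the opposite direction were thus also more frequent than over all genes.

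A second view comes from 5 arrays on 3 other slides whose labels name no ATRA, which are control siRNA and G0s2 siRNA of day 2 and of day 7, and vehicle of day 7. This set was chosen after values had been seen, and it differs from the slide in day or slide, which cannot be told apart from treatment. Whether the siRNA arrays come from mice that drank DEN is not stated. The array titled DEN of day 7 was left out because another label of it names ATRA. For 22 of the 49 higher genes in which both ATRA arrays stood off, the ATRA level lay above all 5 arrays (44.9%, against 16.3% of all genes). For 25 of them vehicle lay below all 5 (51.0%, against 25.0%). Of the 15 lower genes of this kind, 9 had ATRA below all 5 (60%, against 26.3% of all genes). Of the 92 lower genes in which vehicle stood alone, 69 had vehicle above all 5 (75%, against 21.3%). All these genes were placed by the same ATRA and vehicle values, which by itself raises such shares above those of all genes. The shares are therefore a description and lend no support to the placing.

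Cyp26a1, a retinoic acid breakdown gene, had the largest difference of the comparison. Of 5 listed breakdown genes, 4 were above background. All 4 were higher in ATRA (against 44% of all genes), and 2 were at least 2-fold higher (against 1.56%). Cyp26a1, the main retinoic acid hydroxylase of liver (probe on chromosome 19, 37775566 to 37775625, build mm9), had a level of 6.63 in ATRA and 0.42 in vehicle, and of 6.40 in ATRA+DEN and 1.87 in DEN. It was 74.0-fold higher in ATRA than in vehicle, and both ATRA arrays lay above the 0.43 to 2.38 of the 5 arrays on other slides. Cyp26b1, its paralog (chromosome 6, 84521952 to 84522011), had 5.85 in ATRA and -0.24 in vehicle, and 6.00 in ATRA+DEN and 2.12 in DEN. It was 67.9-fold higher in the first pair and 14.8-fold in the second. The 5 other arrays ran from 0.31 to 3.03 for Cyp26b1, so both ATRA arrays lay above them and vehicle below them. The 2 hydroxylases thus reached like levels on both ATRA arrays, with a wider gap between vehicle and DEN than between the ATRA arrays. Dhrs3, which reduces retinal back to retinol, differed by 0.39 in ATRA minus vehicle and 0.46 in ATRA+DEN minus DEN. Cyp2c39, a P450 that hydroxylates retinoic acid, differed by 0.63 and -0.63. Cyp26c1, the remaining CYP26 gene, was not well above background on any of the 4 arrays.

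The promoter of Cyp26a1 is shown because a retinoic acid receptor site of the classical form lies in it, and that of Rarb because it is the receptor gene that was higher in ATRA. The sequences, from 250 bases before to 50 bases after the annotated start, are those of RefSeq on build GRCm38.p6, and capitals mark 2 hexamers in the same direction with 5 bases between them.
Cyp26a1, chr19:37697558-37697857, plus strand: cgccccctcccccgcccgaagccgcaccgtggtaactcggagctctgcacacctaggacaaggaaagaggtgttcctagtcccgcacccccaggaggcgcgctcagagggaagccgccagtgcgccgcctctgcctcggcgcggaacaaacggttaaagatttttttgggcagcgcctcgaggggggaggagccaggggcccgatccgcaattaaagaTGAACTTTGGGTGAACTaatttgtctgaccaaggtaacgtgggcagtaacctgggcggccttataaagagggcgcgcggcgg
Rarb, chr14:16575427-16575726, minus strand: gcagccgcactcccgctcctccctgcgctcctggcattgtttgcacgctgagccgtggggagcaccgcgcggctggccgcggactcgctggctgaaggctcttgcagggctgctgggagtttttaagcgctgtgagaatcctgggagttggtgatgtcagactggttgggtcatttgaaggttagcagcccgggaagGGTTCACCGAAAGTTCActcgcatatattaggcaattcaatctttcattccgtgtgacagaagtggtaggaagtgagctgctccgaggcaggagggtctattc
The search took as hexamers AGGTCA, the consensus, and its variants AGTTCA, with the third base changed, GGGTCA, with the first base changed, and GGTTCA, with both changed, on both strands. The Cyp26a1 match begins 32 bases before the start and the Rarb match 53 bases before it. Such a repeat was in 32 of 32851 promoters (0.0974%). Of the genes compared here, 10318 had a promoter sequence to search. Of these, 4 hold such a repeat, namely Cyp26a1 (6.21), Rarb (1.45), Blvrb, a biliverdin reductase (0.08), and Prss27, a serine protease (0.06), where the values are ATRA minus vehicle. A match is a description of letters and not evidence of binding.

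Of the genes of retinol uptake, storage and oxidation, 1 stood out. Lrat, the retinol esterifying enzyme (chromosome 3, 82696805 to 82696864), had 2.33 in ATRA and 0.12 in vehicle, and 2.24 in ATRA+DEN and 0.28 in DEN. It was 4.61-fold higher in the first pair and 3.90-fold in the second, and both ATRA arrays lay above the -0.11 to 0.72 of the 5 other arrays. Liver Lrat is known mainly from stellate cells, and in whole-tissue RNA more cells of a type and more RNA per cell, or fewer and less, cannot be told apart. It was the only member of the 21 above background, of 27 listed, that was 2-fold apart, and the list median was -0.17, with 16 members below 0 (against 56% of all genes). The serum carriers Rbp4 and Ttr differed by -0.28 and -0.20. Aldh1a1, which oxidises retinal to retinoic acid, had 7.42 in ATRA and 8.34 in vehicle, and 8.02 in ATRA+DEN and 8.53 in DEN. Stra6l, the retinol-binding protein receptor of liver, differed by -0.04, and the retinol dehydrogenases Rdh5, Rdh7, Rdh9, Rdh10, Rdh11, Rdh12, Rdh14 and Rdh16 all lay within the range of -0.40 (Rdh16) to 0.02 (Rdh10). Bco1, which cleaves carotene, differed by -0.35. The other members Aldh1a7, Dgat1, Ces1d, Lpl, Adh1 and Dhrs4 were all less than 1.5-fold apart.

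Among 17 measured retinoid receptors and cofactors, of 18 listed, Rarb alone was 2-fold apart, and the list median was 0.01. Rarb, a receptor for ATRA (chromosome 14, 17263367 to 17263426), had 1.54 in ATRA and 0.09 in vehicle, and 1.73 in ATRA+DEN and 0.62 in DEN. Both ATRA arrays lay above the 0.05 to 0.62 of the 5 other arrays. A second Rarb probe differed by -0.34, so the probes of this gene disagree. The receptors Rara and Rarg differed by -0.26 and 0.50, and Rxra, Rxrb and Rxrg by -0.03, 0.01 and -0.19. Fabp5, a carrier of fatty acids and retinoic acid, had 5.52 in ATRA and 4.78 in vehicle, but 3.91 in ATRA+DEN and 5.12 in DEN, so the pairs differ in direction. Crabp2, the retinoic acid carrier to the nucleus, differed by -0.01 and the lipid-sensing receptor Ppard by -0.39. The corepressor Ncor1 differed by 0.18 and the coactivators Ncoa1, Ncoa2 and Ncoa3 by -0.05, 0.21 and 0.28. The orphan receptor Rora differed by 0.23.

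Genes listed as retinoid responsive had 21 of 31 on the array above background, with a median of 0.38, 17 above 0 (against 44% of all genes), 6 at least 2-fold higher and none at least 2-fold lower (against 1.56% and 1.53% of all genes). Besides Cyp26a1, Cyp26b1, Lrat and Rarb, the 6 were Pck1 and Btg2. For Btg2 vehicle stood alone, with 1.11 in ATRA minus vehicle and -0.49 in ATRA+DEN minus DEN. Nrip1, a corepressor that retinoids induce, had 1.66 in ATRA and 0.87 in vehicle, and 1.44 in ATRA+DEN and 1.03 in DEN. Foxa1, a liver transcription factor, had 3.02 in ATRA and 2.19 in vehicle, and 3.53 in ATRA+DEN and 2.16 in DEN. Tgm2, a transglutaminase, differed by 0.60 in the first pair and 0.39 in the second. The members not yet named lay between -0.75 (Hes6, a transcriptional repressor) and 0.38 (Nr0b2, the bile acid-induced receptor SHP), among them Rarres1 (0.36), Egr1 (0.27), Cpt1a (0.18), Pdk4 (0.18), Rarres2 (0.03), Tnip1 (-0.28) and Ucp3 (-0.29).

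Of the listed ligands of NKG2D, the activating receptor of natural killer cells, both that could be compared were at least 2-fold higher in ATRA (against 1.56% of all genes). Raet1e (chromosome 10, 21903525 to 21903584) had 6.09 in ATRA and -0.0019 in vehicle, and 5.52 in ATRA+DEN and 2.72 in DEN, 68.3-fold higher in the first pair and 6.96-fold in the second. Raet1b (chromosome 10, 22093685 to 22093744) had 5.92 in ATRA and 1.74 in vehicle, and 5.39 in ATRA+DEN and 2.92 in DEN, 18.2-fold and 5.56-fold. For both genes the ATRA arrays lay above the 5 other arrays, whose highest values were 2.42 and 2.54. The lowest values of those arrays were 1.09 and 1.48, so vehicle lay below them for Raet1e and inside their range for Raet1b. Raet1a had -1.02 in ATRA, -1.33 in ATRA+DEN and -2.99 in DEN and was not well above background in vehicle, which makes it at least 5.62-fold higher in ATRA. The Raet1 genes are close paralogs and a probe may bind more than 1 of them, so the split between them is uncertain. Of the 8 listed ligands on the array, only Raet1b and Raet1e were above background in both ATRA and vehicle. The summed level of those 2 genes, on the linear scale, was 129 in ATRA and 4.34 in vehicle, and 88.0 in ATRA+DEN and 14.2 in DEN.

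Cish, Socs2 and Socs3, inhibitors of cytokine and growth hormone signalling, were among the 49 genes that both ATRA arrays had higher, and were not a list of their own. Cish, a feedback inhibitor that STAT5 induces (chromosome 9, 107204196 to 107204255), had 4.15 in ATRA and 0.40 in vehicle, and 4.51 in ATRA+DEN and 1.47 in DEN, 13.5-fold and 8.22-fold. However, vehicle and DEN were the 2 lowest of all 12 arrays, and the other 10 lay between 3.50 and 4.93 whether or not they had ATRA. Socs2, of the same family (chromosome 10, 94875066 to 94875125), had 3.35 in ATRA and 0.08 in vehicle, and 3.28 in ATRA+DEN and 1.64 in DEN, against 0.12 to 2.74 on the 5 other arrays. Its 2 other probes above background gave 3.19 and 3.26 in ATRA minus vehicle. Socs3, which STAT3 induces, had 2.04 in ATRA and 0.45 in vehicle, and 1.95 in ATRA+DEN and 0.31 in DEN, within the 0.42 to 2.49 of the other arrays for both ATRA arrays. The Cish promoter is shown for its STAT motifs, TTCNNNGAA, in capitals, again from RefSeq on GRCm38.p6.
Cish, chr9:107296409-107296708, plus strand: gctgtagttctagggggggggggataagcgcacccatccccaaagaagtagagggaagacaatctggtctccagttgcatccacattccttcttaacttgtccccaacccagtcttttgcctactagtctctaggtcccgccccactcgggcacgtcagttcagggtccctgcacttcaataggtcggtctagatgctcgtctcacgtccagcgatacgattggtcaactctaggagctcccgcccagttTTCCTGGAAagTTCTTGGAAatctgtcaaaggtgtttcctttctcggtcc
The 2 motifs begin at the start and 11 bases after it. The same motif was in 8.30% of all promoters of this length.

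Other named genes among the 49 have varied roles. Gadd45g, a growth arrest gene, had 6.52 in ATRA and 3.46 in vehicle, and 5.54 in ATRA+DEN and 3.07 in DEN. On the 5 other arrays it lay between 3.86 and 5.90, so ATRA was above and vehicle below them. Slc25a30, a mitochondrial carrier, had -0.07 in ATRA and -2.43 in vehicle, and -0.13 in ATRA+DEN and -1.64 in DEN. Myc, the growth-promoting transcription factor, had 0.05 in ATRA and -1.87 in vehicle, and 0.86 in ATRA+DEN and -1.83 in DEN. Mt2, a metallothionein that binds zinc, had 4.19 in ATRA and 2.26 in vehicle, and 4.37 in ATRA+DEN and 1.23 in DEN. For Myc and Mt2 the 2 ATRA arrays lay inside the range of the 5 other arrays, which was -0.87 to 1.27 for Myc and 2.01 to 8.06 for Mt2, and for Myc both vehicle and DEN lay below it. Of the 49 higher genes, 40 had DEN and vehicle within 2-fold of each other and 47 had ATRA and ATRA+DEN within 2-fold.

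Genes of the fasted state included 3 that were at least 2-fold higher (against 1.56% of all genes), while the list median over 22 members was -0.00. Pck1, the rate-limiting enzyme of gluconeogenesis (chromosome 2, 172984307 to 172984366), had 7.70 in ATRA and 5.39 in vehicle, and 6.59 in ATRA+DEN and 5.34 in DEN, with 6.64 to 7.96 on the 5 other arrays. ATRA thus lay inside that range, ATRA+DEN just below it and vehicle and DEN further below. Igfbp1, an insulin-suppressed binding protein, had 1.83 in ATRA and 0.37 in vehicle, and 2.35 in ATRA+DEN and 1.17 in DEN. Trib3, an inhibitor of Akt induced by stress, had 1.48 in ATRA and 0.21 in vehicle, and 1.81 in ATRA+DEN and 0.28 in DEN.

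**Figure D2:**
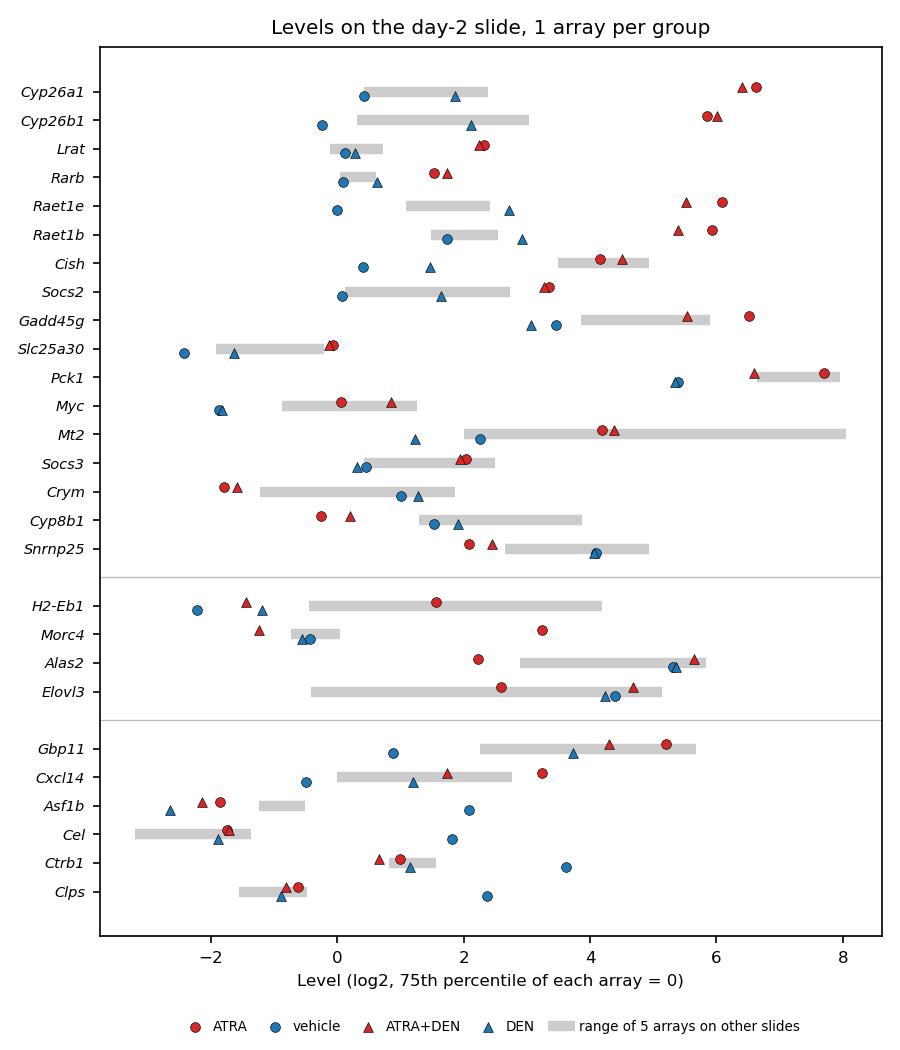
Levels of named genes (horizontal axis, log2, 75th percentile of each array at 0) on the 4 arrays of the day-2 slide, 1 array per group, ATRA and ATRA+DEN drawn above vehicle and DEN in each row. Grey bars span the lowest to the highest of the 5 arrays on other slides. In the top block both ATRA arrays stand off for all genes but Rarb, in the middle block ATRA alone and in the bottom block vehicle alone. For Cyp26a1, Lrat and Raet1e the ATRA points lie beyond the grey bar, and for Cish the vehicle and DEN points do.

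On the lower side, both ATRA arrays stood off in 15 genes. Crym, a thyroid hormone-binding protein (chromosome 7, 127329970 to 127330029), had -1.80 in ATRA and 1.01 in vehicle, and -1.59 in ATRA+DEN and 1.27 in DEN, 6.99-fold and 7.28-fold lower with ATRA. Cyp8b1, the sterol hydroxylase that makes cholic acid (chromosome 9, 121824595 to 121824654), had -0.25 in ATRA and 1.53 in vehicle, and 0.21 in ATRA+DEN and 1.90 in DEN. Snrnp25, a protein of the minor spliceosome, had 2.08 in ATRA and 4.09 in vehicle, and 2.44 in ATRA+DEN and 4.06 in DEN. For these 3 genes both ATRA arrays lay below all 5 other arrays, whose lowest values were -1.23, 1.29 and 2.65. Rab3b, a GTPase of vesicle release, differed by -2.09 and -2.15 in the 2 pairs, Plscr2, a phospholipid scramblase, by -1.81 and -1.77, and Gmds, an enzyme of fucose synthesis, by -2.01 and -1.28. For Gmds the ATRA level of -2.69 lay inside the -3.03 to -1.83 of the other arrays, and vehicle at -0.68 and DEN at -0.89 lay above it. Ccdc68, a centrosomal protein, differed by -2.05 and -2.20. Rbm45, an RNA-binding protein, differed by -1.89 and -1.98, but a second probe of it gave 0.98 in ATRA minus vehicle.

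**Figure D3:**
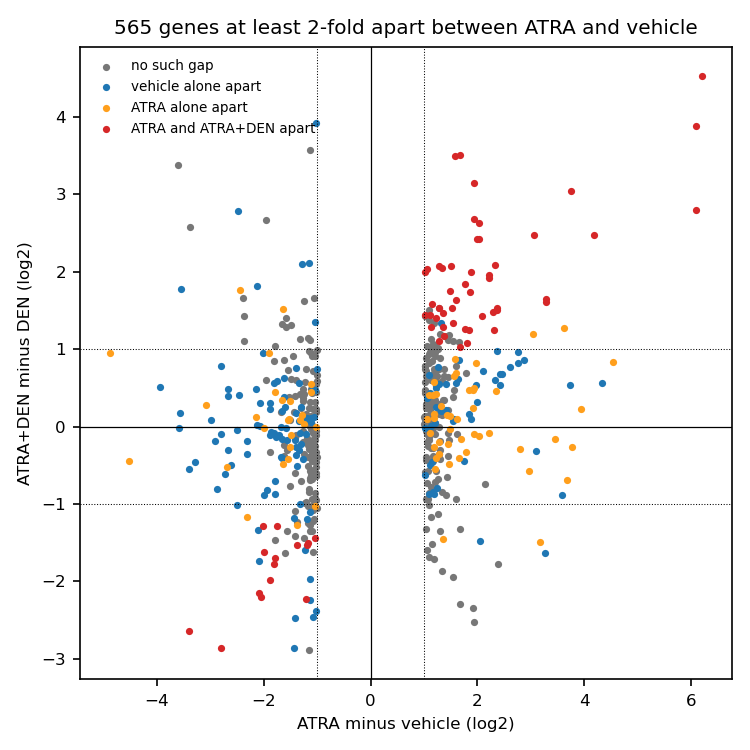
ATRA+DEN minus DEN (vertical axis, log2) against ATRA minus vehicle (horizontal axis, log2) for the 565 genes at least 2-fold apart between ATRA and vehicle, coloured by which array stood off. The 64 genes in which both ATRA arrays stood off (red) lie in the upper right and lower left because that is how they were placed. Genes in which ATRA alone or vehicle alone stood off scatter around 0 on the vertical axis, with exceptions on both sides.

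ATRA alone stood off in 73 genes, which the ATRA+DEN array therefore did not share to the same extent. H2-Eb1, a class II antigen chain, had 1.56 in ATRA and -2.22 in vehicle, and -1.45 in ATRA+DEN and -1.18 in DEN, yet it reached 4.19 on the 5 other arrays and lay at -0.44 or above on all of them. Both H2-Aa and H2-DMb1, also of class II, were lower in ATRA alone, H2-Aa with -2.17 in ATRA and -0.62 in vehicle and H2-DMb1 with -1.04 in ATRA and 0.20 in vehicle. The class II list of 6 measured genes thus held members of both directions, with a median of -0.41. Morc4, a chromatin ATPase (chromosome X, 136356503 to 136356562), had 3.25 in ATRA and -0.43 in vehicle, and -1.24 in ATRA+DEN and -0.56 in DEN, and the 5 other arrays lay at or below 0.04. Its 2 further probes were not above background on both arrays. Cib3, a calcium-binding protein, differed by 3.62 in ATRA minus vehicle and 1.28 in ATRA+DEN minus DEN, Ankrd37, a hypoxia-induced gene, by 3.03 and 1.19, Prom1, a progenitor cell surface marker, by 2.97 and -0.57, Disp1, which releases Hedgehog ligands, by 2.80 and -0.29, and Fpr2, a formyl peptide receptor of phagocytes, by 2.35 and 0.46.

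Lower in ATRA alone was Alas2, the heme synthesis enzyme of red cell precursors (chromosome X, 147004993 to 147005052), with 2.23 in ATRA and 5.31 in vehicle, and 5.64 in ATRA+DEN and 5.37 in DEN. Over all 12 arrays it ran from 2.23 to 6.53, and the array titled ATRA of day 7 had 2.83, whereas the array titled ATRA+DEN of that day had the 6.53 and vehicle of that day 2.89. For 3 day-7 arrays, the first 2 of these included, another label names a different treatment. A2ml1, a protease inhibitor, differed by -2.69, Slc26a4, an anion exchanger, by -2.32, Erfl, an ETS factor, by -2.15, Ptgds, a prostaglandin D synthase, by -1.99, and Acot11, an acyl-CoA thioesterase, by -1.91. Elovl3, a male-biased fatty acid elongase, had 2.60 in ATRA and 4.39 in vehicle, and 4.68 in ATRA+DEN and 4.23 in DEN. Dio1, the deiodinase that activates thyroid hormone, had 3.53 in ATRA and 5.05 in vehicle, and 4.66 in ATRA+DEN and 4.56 in DEN. Elovl3 and Dio1 both had ATRA levels inside the range of the 5 other arrays, which reached down to -0.42 and -0.28.

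Vehicle alone stood off in 140 genes, in each of which, by the way they were placed, vehicle was also at least 2-fold from DEN and from ATRA+DEN on the same side. Gbp11, a guanylate-binding protein (chromosome 5, 105752145 to 105752204), had 5.21 in ATRA and 0.88 in vehicle, and 4.30 in ATRA+DEN and 3.74 in DEN, and the 5 other arrays lay between 2.27 and 5.67. Cxcl14, a chemokine, had 3.25 in ATRA and -0.49 in vehicle, and 1.73 in ATRA+DEN and 1.20 in DEN, and vehicle lay below the -0.01 to 2.77 of the other arrays. Cyp4a14, a fatty acid hydroxylase and target of the receptor PPAR alpha, had 2.08 in ATRA and -1.18 in vehicle, and 1.93 in ATRA+DEN and 3.57 in DEN. The 5 other arrays ran from -5.27 to 3.28 for Cyp4a14, so vehicle lay inside their range. Syt10, a vesicle calcium sensor, differed by 2.76, Wfdc2, a secreted protease inhibitor, by 2.46, Glt1d1, a glycosyltransferase, by 2.36, and H4c4, a histone gene, by 2.32. Dnm1, a vesicle fission GTPase, differed by 2.76 on 1 probe and by -0.27 on another.

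Among the lower genes in which vehicle stood alone, the largest difference of a gene with a name was that of Asf1b, a histone chaperone of dividing cells (chromosome 8, 86493842 to 86493901). It had -1.85 in ATRA and 2.09 in vehicle, and -2.14 in ATRA+DEN and -2.65 in DEN, and the 5 other arrays lay between -1.23 and -0.51. Stil, a gene of centriole duplication, had -2.57 in ATRA and 0.82 in vehicle, and -2.83 in ATRA+DEN and -2.28 in DEN. The cell cycle list did not follow these genes, with 16 of 21 members above 0 (against 44% of all genes) and none 2-fold apart. Ttbk1, a tubulin kinase, differed by -2.92, Zbtb32, a lymphocyte transcription factor, by -2.81, and Rsph9, a protein of cilia, by -2.67, with vehicle inside the range of the 5 other arrays for Ttbk1 and Rsph9 and above it for Zbtb32. Dmbt1, a mucosal scavenger protein, differed by -2.87, and only 1 of the 5 other arrays had it above background.

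The other genes at that end encode digestive enzymes and secretory proteins of pancreatic acinar cells. Cel, the bile salt-activated lipase (chromosome 2, 28411609 to 28411668), had -1.75 in ATRA and 1.82 in vehicle, and -1.72 in ATRA+DEN and -1.89 in DEN. Ctrb1, a chymotrypsin precursor (chromosome 8, 114210454 to 114210513), had 0.99 in ATRA and 3.61 in vehicle, and 0.66 in ATRA+DEN and 1.16 in DEN, and none of the other 11 arrays exceeded 1.56. Ctrc, another chymotrypsin that is not in the fixed list, differed by -3.59, Clps, the colipase, by -2.99, and Sycn, a zymogen granule protein, by -2.72. Of the 24 listed acinar genes on the array, 7 were above background in ATRA and 23 in vehicle, and 9 each in ATRA+DEN and DEN. On the other 8 arrays 6 to 9 of them were. The summed level of all 24 genes, on the linear scale, was 11.2 in ATRA and 93.9 in vehicle, 8.93 in ATRA+DEN and 11.6 in DEN, and at most 28.3 on the others. The 7 genes above background in both ATRA and vehicle had a median of -2.62, and 6 were at least 2-fold lower, where 1.53% of all genes were. How far these transcripts bear on other differences of the vehicle array was not tested.

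**Figure D4:**
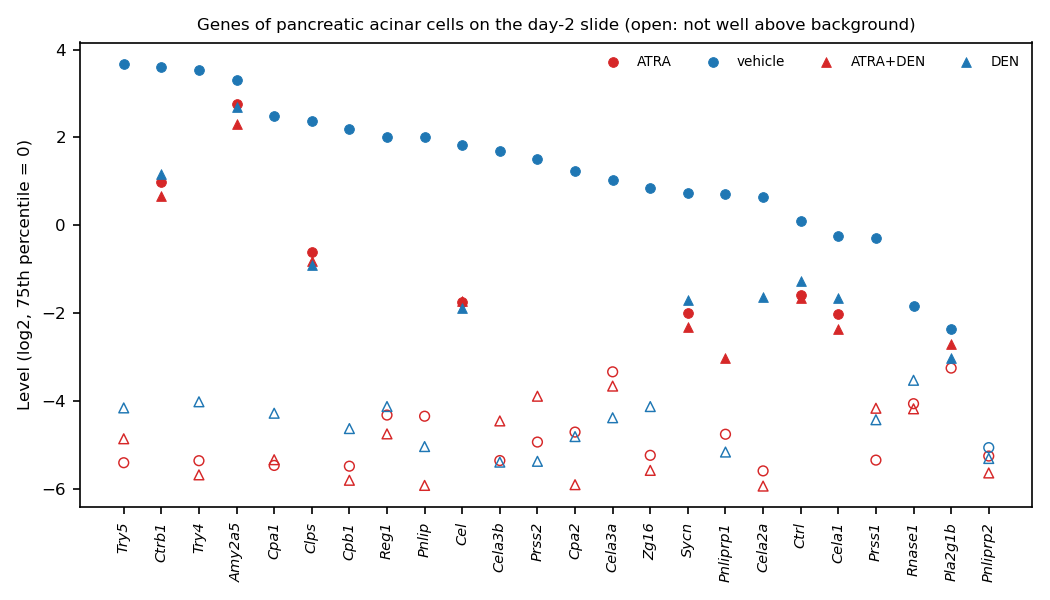
Levels (vertical axis, log2, 75th percentile of each array at 0) of the 24 listed pancreatic acinar genes on the 4 arrays of the day-2 slide, ordered by the vehicle level. Filled symbols are well above background and open symbols are not. The vehicle array (blue circles) has 23 genes filled, the ATRA array 7.

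Several acinar genes could be given only as bounds, since they were not above background in ATRA. Above background in vehicle and not in ATRA were 673 genes, 250 of them by at least 2-fold. Of these 250 genes, 152 were above background on no other array of the slide. The largest were Try5 and Try4, trypsins, at least 137-fold and 123-fold lower in ATRA, the carboxypeptidases Cpa1 (59.7-fold) and Cpb1 (48.5-fold), Reg1, a pancreatic secreted protein (43.1-fold), the lipase Pnlip (42.8-fold), and, outside the list, Ap1m2, an epithelial sorting adaptor (42.4-fold), and Cttnbp2, a cortactin-binding protein (38.2-fold), each a lower limit. Try4 and Try5 are near-identical copies, and their split is uncertain. The reverse, above background in ATRA and not in vehicle, held for 1128 genes, 248 of them by at least 2-fold. Of these 248 genes, 108 were on no other array of the slide and 45 were also above background in ATRA+DEN but not in DEN. The largest of these were Henmt1, a methyltransferase of small RNAs (at least 95.3-fold), Brox (42.1-fold), Olfr1197, an olfactory receptor (25.3-fold), Pde6b, a photoreceptor phosphodiesterase (24.6-fold), Cylc2, a sperm head protein (22.5-fold), Hao2, a hydroxyacid oxidase (18.7-fold), Cfap54, a cilia gene (17.8-fold), and Umod, a kidney protein (17.0-fold). Of these 8, Brox and Hao2 were above background in ATRA+DEN and DEN as well and the other 6 on no other array of the slide. Bounds set the bright array against the higher of the dim array's own signal and its lowest level above background.

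Globin genes were lower in ATRA than in vehicle, and lower again in ATRA+DEN and DEN. Of 10 measured red cell genes, of 14 on the array, 6 were at least 2-fold lower in ATRA (against 1.53% of all genes) and the median was -1.31. Hba-a1, an alpha globin, had 4.85 in ATRA and 6.24 in vehicle, and 2.61 in ATRA+DEN and 2.98 in DEN. Hbb-bt, a beta globin, had 4.12 in ATRA and 5.50 in vehicle, and 1.70 in ATRA+DEN and 2.20 in DEN. Globin genes are near-identical copies, so the 5 globin values, all between -1.43 and -1.31, are not separate readings. The 5 other arrays ran from 4.10 to 6.88 for Hba-a1, with both ATRA and vehicle inside that range. The summed level of the 10 genes was 233 in ATRA and 607 in vehicle, and 100.4 in ATRA+DEN and 103 in DEN. Their part in the other differences was not tested.

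Other cell types differed less. Sinusoidal endothelium markers had 13 of 15 members below 0 in ATRA minus vehicle (against 56% of all genes) and a median of -0.39, which is 0.34 below the median of all genes, and none was 2-fold apart. Fcgr2b, an Fc receptor of these cells, had 1.38 in ATRA and 2.26 in vehicle, and 1.07 in ATRA+DEN and 2.35 in DEN. Lyve1, their hyaluronan receptor, had -1.07 in ATRA and -0.28 in vehicle, and -1.17 in ATRA+DEN and -0.65 in DEN. Their summed level was 153 in ATRA and 203 in vehicle. Hepatocyte markers had a median of -0.15 with 20 of 23 below 0 (against 56%) and none 2-fold apart. With spike-in scaling, which adds 0.37 to every difference, the hepatocyte median turns above 0. The endothelial one, at -0.39 before, then lies only just below 0. Kupffer cell and macrophage markers had a median of -0.07 over 16 genes, and Marco, a scavenger receptor of these cells, was the 1 member 2-fold apart, with 2.08 in ATRA and 1.06 in vehicle, and 2.57 in ATRA+DEN and 1.15 in DEN. Stellate cell and matrix genes had a median of -0.22 over 14 genes, with Lrat higher and Col1a1 (0.11 in ATRA and 1.35 in vehicle) lower. The medians were 0.09 for cholangiocyte and progenitor markers (6 genes, Prom1 higher), -0.18 for T, B and NK cell markers (7 genes) and -0.01 for neutrophil markers (6 genes). They were -0.53 for skeletal muscle (5 genes), -0.21 for adipose tissue (6 genes, Adrb3 lower) and -0.12 for gut epithelium (2 genes).

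**Figure D5:**
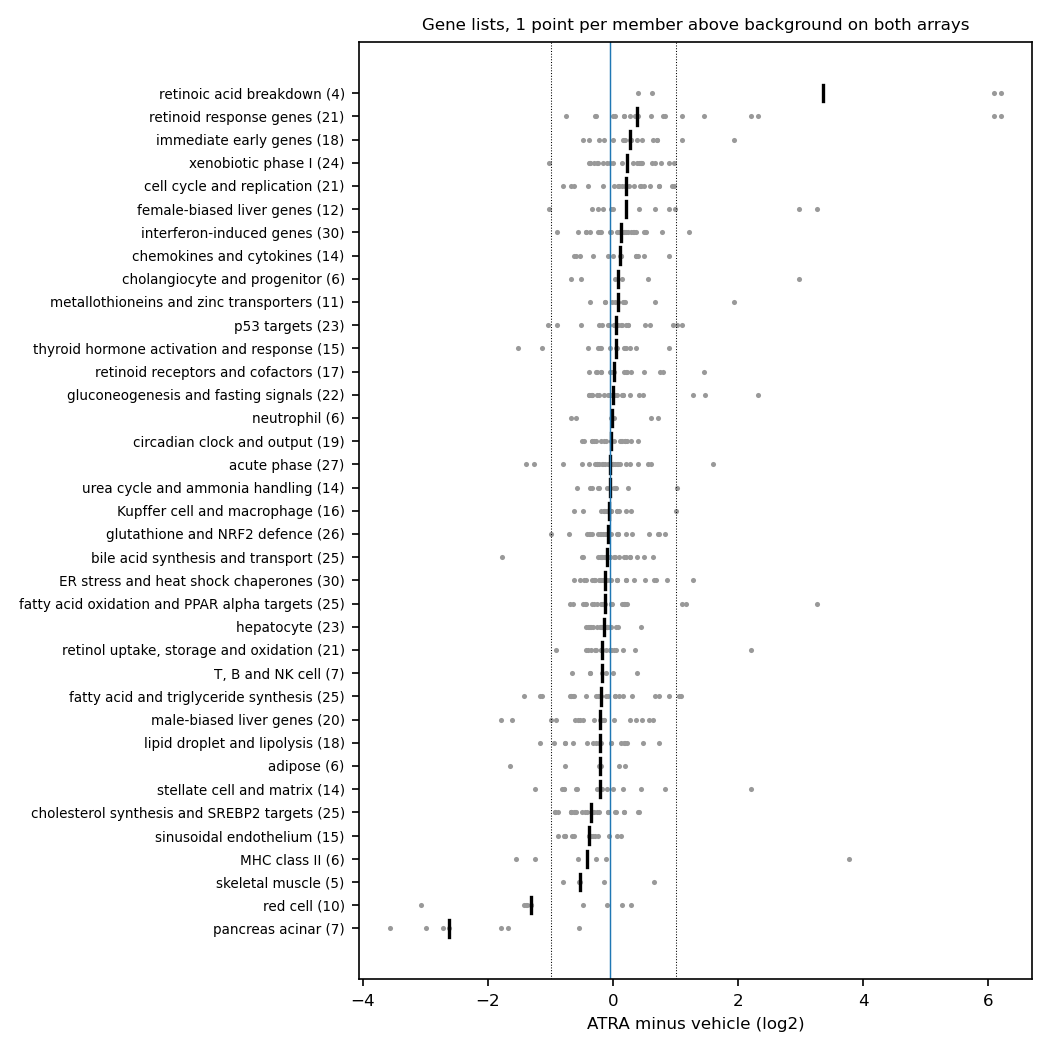
ATRA minus vehicle (horizontal axis, log2) for gene lists with at least 4 members above background on both arrays, 1 grey point per member and a black bar at the median, with the number of members in brackets. The blue line is the median of all genes (-0.05) and dotted lines mark 2-fold. Retinoic acid breakdown genes lie to the right, red cell and pancreas acinar genes to the left, and the other medians between -0.53 and 0.38.

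Lipid synthesis genes had 3 of 25 members at least 2-fold lower and 2 at least 2-fold higher (against 1.53% and 1.56% of all genes), with a median of -0.20. Fasn, the fatty acid synthase, had 2.27 in ATRA and 3.69 in vehicle, and 0.15 in ATRA+DEN and 2.62 in DEN. Thrsp, a lipogenic regulator, had 7.13 in ATRA and 8.27 in vehicle, and 4.90 in ATRA+DEN and 6.88 in DEN. For both genes the order over the 4 arrays was vehicle highest and ATRA+DEN lowest, and vehicle was over 2-fold above DEN too. Gpam, an acyltransferase of triglyceride synthesis, differed by -1.16 and -1.24 in the 2 pairs, Lpin1, a phosphatidate phosphatase, by 1.09 and -0.85, and Mogat1, an acyltransferase, by 1.06 and 0.09. G0s2, an inhibitor of the triglyceride lipase, had 3.12 in ATRA and 4.29 in vehicle, and 0.44 in ATRA+DEN and 3.33 in DEN, and was the only member of the lipid droplet list 2-fold apart (18 genes, median -0.21).

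Cholesterol synthesis genes lay mostly below 0 in ATRA minus vehicle, with 19 of 25 members there (against 56% of all genes), a median of -0.36 and none 2-fold apart. In ATRA+DEN minus DEN their median was -1.10, with 13 members at least 2-fold lower, where 1.81% of all genes were. Fdps, of isoprenoid synthesis, had 5.41 in ATRA and 6.34 in vehicle, and 3.67 in ATRA+DEN and 5.81 in DEN, and Mvd, of the same pathway, had 0.82 in ATRA and 1.76 in vehicle, and -0.71 in ATRA+DEN and 1.13 in DEN. With spike-in scaling the median of this list in ATRA minus vehicle turns to 0.01, and those of lipid synthesis and lipid droplet genes also turn above 0. The fatty acid oxidation list had a median of -0.14 over 25 genes, with Cyp4a14, Cyp4a10 and Cyp4a31 at least 2-fold higher (against 1.56% of all genes). Cyp4a10 had 3.44 in ATRA and 2.34 in vehicle, and 3.47 in ATRA+DEN and 4.33 in DEN, so vehicle was lowest. Other probes of Cyp4a10 and of Cyp4a31, close paralogs, reached down to -0.03 and -0.17.

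Bile acid genes had a median of -0.09 over 25 members with Cyp8b1 the only one of these 2-fold apart. Slc51b, also of this list, was not above background in ATRA and was at least 7.57-fold lower there. It had -0.42 in vehicle, -1.68 in ATRA+DEN and -1.35 in DEN. Phase I enzymes of drug metabolism had a median of 0.22 over 24 members, of which Cyp2a4, a P450, was 2-fold apart, with 7.58 in ATRA and 8.60 in vehicle, and 3.81 in ATRA+DEN and 6.19 in DEN. Glutathione and NRF2 defence genes had a median of -0.09 over 26 members and none of these was 2-fold apart. Gpx2, also of this list, was not above background in vehicle and was at least 3.32-fold higher in ATRA. Of the sex-biased genes, the 12 female-biased ones had a median of 0.20, with Cyp4a14 and Prom1 higher and Cyp2a4 lower. Hao2, Slc22a26 and A1bg, also of the female-biased list, were not above background in vehicle. They were at least 18.7-fold, 7.75-fold and 2.09-fold higher in ATRA. Hao2 had 0.72 in ATRA, -3.19 in ATRA+DEN and 1.45 in DEN. The 20 male-biased genes had a median of -0.20, with Elovl3 and Bcl6 lower. Bcl6, a repressor of female-type genes in male liver, had 2.06 in ATRA and 3.69 in vehicle, and 3.70 in ATRA+DEN and 2.84 in DEN. Thyroid hormone genes had a median of 0.05 over 15 members with Dio1 and Thrsp lower, and urea cycle and ammonia genes -0.06 over 14 with Rhbg, an ammonia channel, higher by 1.03. Hr, also of the thyroid hormone list, was not above background in ATRA and was at least 2.13-fold lower there.

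The p53 targets had a median of 0.05 over 23 members, with 2 at least 2-fold higher and 1 lower (against 1.56% and 1.53% of all genes). Cdkn1a, the cell cycle inhibitor p21, had 2.13 in ATRA and 1.12 in vehicle, and 3.39 in ATRA+DEN and 4.02 in DEN, so vehicle was lowest. Btg2, an antiproliferative gene, had -0.91 in ATRA and -2.01 in vehicle, and -0.30 in ATRA+DEN and 0.20 in DEN. Gdf15, a stress cytokine, had -0.15 in ATRA and 0.90 in vehicle, and 2.56 in ATRA+DEN and 3.59 in DEN. Mdm2, which restrains p53, had 3.45 in ATRA and 3.51 in vehicle, and 4.81 in ATRA+DEN and 4.74 in DEN.

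Cell cycle genes had a median of 0.21 in ATRA minus vehicle and 0.75 in ATRA+DEN minus DEN, where all 21 were above 0 (against 48.7% of all genes) and 6 at least 2-fold higher, against 2.21% of all genes. Mki67, a proliferation marker, had -0.88 in ATRA and -1.84 in vehicle, and -0.66 in ATRA+DEN and -2.99 in DEN. Cdc20, a mitotic activator, had -0.75 in ATRA and -1.69 in vehicle, and -0.27 in ATRA+DEN and -2.26 in DEN. Plk1, a mitotic kinase, was above background on both ATRA arrays and on neither vehicle nor DEN, and was at least 3.00-fold higher in ATRA. Immediate early genes had a median of 0.28 over 18 members with Myc and Btg2 higher.

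Inflammatory lists were near the median of all genes. Interferon-induced genes had a median of 0.13 over 30 members with Irf7, an interferon regulator, at -1.20 in ATRA and -2.41 in vehicle, and -1.13 in ATRA+DEN and -1.17 in DEN, so vehicle stood alone. Chemokines and cytokines had a median of 0.12 over 14 members with none 2-fold apart. Of 27 acute phase genes, with a median of -0.06, Socs3 was higher and the serum amyloids Saa1 and Saa2 lower, Saa1 with 5.90 in ATRA and 7.17 in vehicle, and 6.58 in ATRA+DEN and 6.09 in DEN. Metallothioneins and zinc transporters had a median of 0.08 over 11 members with Mt2 higher. ER stress and heat shock chaperones had a median of -0.13 over 30 members with Trib3 higher, and circadian clock genes -0.03 over 19 with none 2-fold apart.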

How the data were processed

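Liver RNA was hybridised to 12 Agilent 1-colour (Cy3) mouse arrays in 12 groups of 1 array, of which the 4 day-2 arrays of 1 slide were used here. The deposited array files hold processed spot intensities, background-subtracted by Agilent Feature Extraction, version 10.7.1.1 per the file headers and 9.5.1.1 per the submitters' processing notes. Probe positions are on build mm9, per the file headers. Whether a probe lies in coding sequence or in a UTR was not determined. The log2 intensity of the 59305 non-control spots of 62976 was taken, spots of 1 probe were averaged without outlier flags, giving 55681 probes, and the 75th percentile of each array was subtracted. Probes were named from the RefSeq table (GRCm38.p6) through accession (27235), symbol (3581) or synonym (565), and 24300 kept the name in the file. A gene is its probe with the highest mean level over the 12 arrays.

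With 1 array per group no test was possible. Genes at least 2-fold apart were counted and placed by their largest gap among the 4 arrays. Named genes are the 15 largest differences each way, the 8 largest of each kind of gap and of each bound, the measured members of 4 retinoid lists, up to 5 members of each of the other 35 lists that were 2-fold apart (otherwise up to 2), and G0s2, Cyp26a1, Cdkn1a and Mdm2, without predicted or clone names. A few genes that met this rule are not reported here. The members and lists were chosen with earlier results of these data known. The deposited series table of normalized intensities was used as an alternative, as were normexp and quantile normalization (limma 3.58.1, R 4.3.3), spike-in, median and quantile scaling, other background filters, the median over probes, and folds of 1.5 and 3. Scripts in Python 3.11.15 were tested on simulated data. Having only 1 array in each group limits the precision.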

Additional observations from a re-analysis of the deposited data

Results flagged for a closer look

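Among the 160 named genes, 6 were at least 2-fold apart in opposite directions in the 2 ATRA pairs of the slide. They are among 46 such genes in all. Each pair is 1 array against 1 array, so the difference between the pairs was not tested. Cyp4a14, a PPAR alpha target, differed by 3.26 in ATRA minus vehicle and by -1.63 in ATRA+DEN minus DEN. Zfp983, a zinc finger gene, differed by 3.17 and -1.49, but its ATRA+DEN level of -4.28 was not well above background. Ren2, a renin gene, differed by -3.60 and 3.38, with -1.02 in ATRA and 2.58 in vehicle, and 2.33 in ATRA+DEN and -1.05 in DEN. Nox4, an oxidase that makes reactive oxygen, differed by -2.45 and 1.77. Col1a1, a collagen of matrix-producing cells, differed by -1.24 and 1.62, and Adrb3, an adrenergic receptor of fat cells, by -1.64 and 1.51.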

How the results depend on the processing

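No paired analysis was possible because each group has 1 array, and for the same reason no replicate could be left out. The counts of genes at least 2-fold higher and lower in ATRA (285 and 280) became 859 and 129 with spike-in scaling, 145 and 119 with normexp and quantile normalization, 1486 and 2000 without a background filter, 1004 and 1085 at 1.5-fold and 89 and 91 at 3-fold. The genes in which vehicle alone stood off (140) became 280, 62, 1062, 533 and 53 under the same 5 settings. Those in which both ATRA arrays stood off (64) became 37, 286, 218 and 23, and those in which ATRA alone did (73) became 37, 701, 298 and 22, under the last 4 of them. The genes called the same way in ATRA+DEN minus DEN (120) became 61, 520, 454 and 31. Quantile scaling of the 12 arrays, median scaling, the deposited series table, the requirement that a gene be above background on all 4 arrays and the median over probes kept each of these counts within 1.5 times. Of the 565 called genes, 556 were called the same way under quantile scaling, 555 in the deposited table, 414 with spike-in scaling and 258 with normexp. Spike-in scaling turned 20 of the 25 list medians that lay below 0 to above 0. With the median over all probes, 1 named gene changed sign, Cyp4a31, to -0.17. The cause of these moves was not tested, except that the spike-in setting adds 0.37 to every difference and that other folds move the counts by construction.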
